A study of Mus musculus with 9 samples.

Results

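Hypoxia-inducible stress genes are described here across 9 arrays of mouse embryonic stem (ES) cells. The members are 10 named genes, Adm, Vegfa, Egln3, Ankrd37, Pdk1, Bnip3, Ddit4, Bhlhe40, Ndrg1 and P4ha1, out of 18193 genes on the array. A probe set, the group of probes that reads a transcript, was used where the platform annotation gave it only that gene's symbol. The members had 21 such probe sets, and each gene is represented by the brightest of its own. Tests covered 8716 genes that reached a signal of 50 on 2 or more arrays, and all 10 members were among them. Adm passed this filter on 3 arrays, and Vegfa and Ankrd37 on 2. The members were proposed with differences between the media already in view, so the comparison of media is given as a description and supports nothing by itself. Other earlier results of these data were also known when the members and the gene lists were chosen. Counts of members over other intervals are therefore descriptions too.

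Each array holds biotin-labelled total RNA from 1 sample, with no replicate of any group. Undifferentiated cells were kept with leukemia inhibitory factor, serum replacement, a little serum and doxycycline at 1 µg/ml. Differentiating cells were moved to another basal medium with more serum and no leukemia inhibitory factor, and taken after 0.5, 1.5, 2.5 or 3.5 days (D0.5 to D3.5), with doxycycline at 1 µg/ml (Dox+) or without it (Dox-). The cells carry a form of PKA, the cyclic AMP-dependent kinase, that is always active and under the control of doxycycline, so the media ask what this kinase does to differentiating cells. Whether doxycycline turns it on or off is not said in the labels, and the groups are therefore called Dox+ and Dox-. They name no clone and no oxygen level. For lack of replicates, the tests of medium use the 4 days as repeats, and those of time use the 2 media. P-values therefore measure only the spread between these arrays, which may be technical. Levels are array signals that the authors scaled to an average of 100. Differences are given in log2(signal + 16), where 1 is about 2-fold for a bright gene and the change of a dim gene is understated. Counts of genes at least 2-fold apart use a difference of 1 on this scale. A dim gene can therefore be more than 2-fold apart in signal and not be counted.

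The hypoxia-inducible factors (HIFs) are transcription factors made of an oxygen-regulated alpha subunit and a stable beta subunit. When oxygen is plentiful, prolyl hydroxylases of the Egln family mark the alpha subunit for destruction through the Vhl ubiquitin ligase, and when it is scarce the pair binds hypoxia response elements and turns on genes for glycolysis, vessel growth, mitophagy and matrix synthesis. Many of these genes also answer other signals, such as growth factors, glucocorticoid or amino acid shortage, and ES cells are known for a strongly glycolytic metabolism.

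The promoter stretches below show the letters through which this pathway is known to act, the core of the hypoxia response element. A window of 300 bases, from 250 before to 50 after the start site, was read from RefSeq (mouse build GRCm38.p6) and searched for ACGTG or GCGTG on either strand, so that CACGT and CACGC also count. ACGTG overlaps the E-box CACGTG, which other factors bind. Capitals mark the matches, and each sequence runs 5′ to 3′ on the gene's strand from 12 bases before the first match upstream of the start site to 12 after the last. A further match in the Pdk1 window spans the start site and lies outside the stretch printed.
Adm, chr7:110627555-110627619, plus strand: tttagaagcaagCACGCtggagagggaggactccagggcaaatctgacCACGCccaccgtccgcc
Pdk1, chr2:71873134-71873162, plus strand: ccgcctacatggGCGTGtctttaaccagg
Bnip3, chr7:138909525-138909635, minus strand: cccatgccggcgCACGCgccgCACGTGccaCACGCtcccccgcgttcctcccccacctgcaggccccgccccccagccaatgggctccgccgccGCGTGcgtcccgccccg
Ddit4, chr10:59951869-59951969, minus strand: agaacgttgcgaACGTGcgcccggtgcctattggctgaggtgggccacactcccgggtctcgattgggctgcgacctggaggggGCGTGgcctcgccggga
Egln3, chr12:54204087-54204115, minus strand: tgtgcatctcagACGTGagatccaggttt

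RefSeq entries were matched for 8 of the 10 members, with 10 windows, since Pdk1 and Vegfa each had 2. At least 1 match lay in 8 of these windows (80.0%), against 64.6% of 9161 windows of the tested genes and 43.8% of all 32851 windows. The window of Bnip3 held 5 matches, of which 2 are the strands of 1 E-box, and those of Ankrd37, P4ha1 and Vegfa held 4, 3 and 2. The other windows of Pdk1 and Vegfa held 0. The full cyclic AMP response element TGACGTCA was found in 0 of the 10 windows, against 3.3% of windows of the tested genes and 1.8% of all windows. Its shorter form TGACG was found in windows of Vegfa and Egln3 (20.0%), against 32.8% of windows of the tested genes and 20.8% of all windows. A match is a description of these letters and not a binding site.

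The earliest difference came before the media had parted. All 10 members read higher on both D0.5 arrays than on the undifferentiated array, as did 55.6% of tested genes in Dox+ and 50% in Dox-, and 8 of them, all but Pdk1 and Bhlhe40, had the lowest of their 9 signals in undifferentiated cells, as did 22.9% of tested genes. Egln3 encodes the prolyl hydroxylase PHD3, itself a HIF target that feeds back on the alpha subunit. It read 44.5 in undifferentiated cells, 317 on D0.5 in Dox+ and 342 in Dox-. Bnip3, a mitochondrial outer membrane protein that drives mitophagy, read 250.2, then 1288 and 1417. Ddit4 (REDD1), an inhibitor of the growth kinase complex mTORC1, read 169.9, then 564 and 613. On each of these genes the pair of D0.5 arrays lay close together and far above the undifferentiated array. Adm, the secreted vasodilator peptide adrenomedullin, read 8.8, then 47.0 and 65.4. Its undifferentiated signal lay below that array's median over all probe sets, 10.7, so its difference rests on a signal near the dim end.

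At least 2-fold above undifferentiated cells were 4 members on the Dox+ array of D0.5 (1.43% of tested genes) and 5 on the Dox- array (1.57%), with 0 at least 2-fold below on either (1.3% on both). Egln3 was higher by 2.46 and 2.57 on the log2 scale, Bnip3 by 2.29 and 2.43, Ddit4 by 1.64 and 1.76, Adm by 1.34 and 1.71 and Ndrg1, a stress- and differentiation-induced cytoplasmic protein, by 0.87 and 1.11. Smaller differences were seen for P4ha1, the catalytic subunit of collagen prolyl 4-hydroxylase, at 0.64 and 0.70, and for Bhlhe40 (DEC1), a transcriptional repressor of the clock and of differentiation, at 0.64 and 0.51. Pdk1, a mitochondrial kinase that inhibits pyruvate dehydrogenase, differed by 0.08 and 0.23, and Vegfa, the main vascular growth factor, by 0.18 and 0.08. On their brightest probe sets the members thus ranged from a more than 4-fold difference to almost none over the same interval. For Pdk1 the size depended on the probe set. The next brightest read 1446.0 in undifferentiated cells, then 2013.6 in Dox+ and 1861.1 in Dox-. A dimmer one read 305.5, then 570.8 and 485.9.

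In the limma fit of all 9 arrays, 0 of 8716 genes passed a 5% false discovery rate for this interval (0%), and 766 had an unadjusted p under 0.05 (8.79%), among them Bnip3, Egln3 and Ddit4. The fitted differences were 2.67 ± 0.48 for Bnip3 (SE; limma adjusted p = 0.227), 2.68 ± 0.77 for Egln3 (0.367), 2.04 ± 0.75 for Ddit4 (0.505) and 2.11 ± 1.13 for Adm. This fit takes its spread from all days, including those on which the media had parted. Its estimates also carry the medium difference fitted over all 4 days, because the undifferentiated array is counted as Dox+. They therefore exceed both single-array differences for Bnip3 (2.29 and 2.43) and for Adm (1.34 and 1.71). A fit of the undifferentiated and D0.5 arrays alone was chosen after the values were seen. Because the members were chosen with earlier results of these data known, its counts of members are a description and support nothing by themselves. Its spread comes from the pair of D0.5 arrays, which differ in medium, and from a spread that limma pools over all tested genes. This fit assumes that the lone undifferentiated array varies like the D0.5 arrays. With 1 residual degree of freedom, it rests mostly on the pooled spread, which sets the size of its p-values. It called 7 members higher and 0 lower, against 7.51% and 5.77% of all tested genes. Bnip3 rose by 2.36 ± 0.13 (limma adjusted p = 7.12e-12), Egln3 by 2.51 ± 0.16 (4.35e-11), Ddit4 by 1.70 ± 0.14 (2.9e-09) and Adm by 1.53 ± 0.20 (6.06e-06). By size of difference Egln3 ranked 8 and Bnip3 14 among all tested genes. Ndrg1 rose by 0.99 ± 0.19 (adjusted p = 0.000526), P4ha1 by 0.67 ± 0.18 (0.012) and Bhlhe40 by 0.57 ± 0.18 (0.0341), while Ankrd37 (0.50 ± 0.20, adjusted p = 0.0985), Pdk1 (0.16 ± 0.13, 0.507) and Vegfa (0.13 ± 0.20, 0.739) did not pass. The loss of leukemia inhibitory factor, the serum, the change of basal medium and the time in culture all came together with this interval and cannot be told apart, and every value here rests on 1 undifferentiated array.

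**Figure D1:**
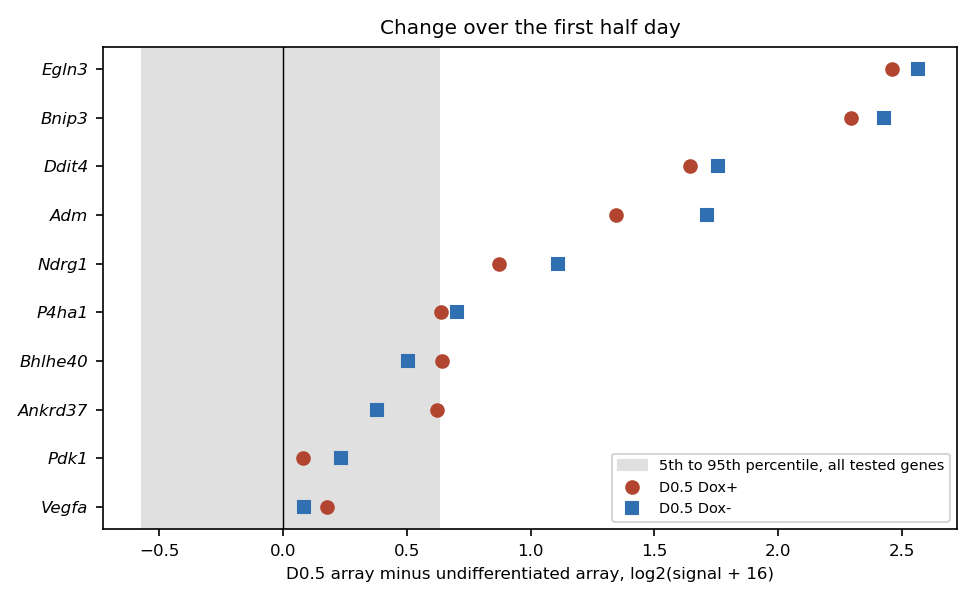
Difference of each D0.5 array from the undifferentiated array, on the log2(signal + 16) scale, for the 10 members (circles Dox+, squares Dox-), with the 5th to 95th percentile of all tested genes in grey. Egln3, Bnip3, Ddit4, Adm, Ndrg1 and P4ha1 lay above the band in both media, with Egln3 at 2.46 and 2.57.

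From D1.5 on the media parted, and the secreted members are described first. Adm read 47.0, 293, 123 and 25.4 in Dox+ from D0.5 to D3.5, and its Dox- signals on the same days were 65.4, 25.6, 9.1 and 38.0. The Dox+ signals of D1.5 and D2.5 stood above all others, whereas the Dox- signals went down from D0.5 to D2.5, where the value was again as dim as in undifferentiated cells. The Dox- minus Dox+ difference was 0.37, -2.89, -2.47 and 0.38 on the 4 days, and the other probe set gave 0.13, -2.84, -2.70 and 1.02. Because Adm is dim in Dox-, these sizes depended on the constant added before the logarithm: with 1 in place of 16 they were -3.47 on D1.5 and -3.62 on D2.5, and with 64 they were -1.99 and -1.36. In bulk RNA such a difference cannot tell fewer cells with the transcript from less transcript per cell.

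Vegfa read 19.3 in undifferentiated cells, 23.9, 59.6, 40.6 and 49.1 in Dox+ and 21.4, 43.6, 30.3 and 76.2 in Dox-. It was dim throughout and above 50 only on the Dox+ array of D1.5 and the Dox- array of D3.5. Its differences between media were -0.09, -0.34, -0.29 and 0.50, none of them 2-fold. Between D0.5 and D3.5 it differed by 1.00 ± 0.29 with both media together (limma adjusted p = 0.0559), just short of the threshold. The other Vegfa probe set was dimmer and did not follow it (r = 0.22 over the 9 arrays).

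Egln3 and Ankrd37 belong to the HIF system itself or are induced closely with it. Egln3 read 317, 816, 447 and 234 in Dox+ and 342, 221, 268 and 506 in Dox-. The Dox+ arrays peaked on D1.5 and the Dox- arrays on D3.5, so that the order of the media turned between these days, with differences of 0.11, -1.81, -0.71 and 1.06. The other probe set had the same signs on all 4 days, at 0.07, -1.58, -0.97 and 0.75. Ankrd37, an ankyrin repeat protein whose gene is a known HIF target, read 22.7 in undifferentiated cells, 43.6, 35.7, 53.5 and 49.5 in Dox+ and 34.4, 43.7, 27.5 and 120.0 in Dox-. It was dim on all arrays but the Dox- array of D3.5, where its difference was 1.05, after -0.24, 0.21 and -0.68.

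Pdk1 and Bnip3 act on the mitochondrion. Pdk1 had a course of its own. It was already high in undifferentiated cells, at 1906, read 2014, 2114, 1610.1 and 928 in Dox+ and 2243, 1017, 421 and 442 in Dox-. It was therefore the only member that was lower on D3.5 than in undifferentiated cells in both media, and the only one at least 2-fold lower in Dox- on D3.5. Its differences between media were 0.15, -1.04, -1.90 and -1.04, and the next brightest probe set gave -0.11, -1.16, -1.68 and -0.73. A dimmer one gave smaller values of -0.23, -0.79, -0.72 and -0.28, so the size of the Pdk1 difference depended on the probe set. Bnip3 read 1288, 2599.7, 2272 and 1848 in Dox+ and 1417, 1467, 741 and 1569.6 in Dox-. Its Dox- array of D2.5 was the lowest of the differentiating arrays but still above the undifferentiated signal of 250.2. The differences were 0.14, -0.82, -1.60 and -0.23.

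Ddit4, the mTORC1 inhibitor, and Bhlhe40, the repressor, followed Adm in their dip on the Dox- array of D2.5. Ddit4 read 564, 2256, 2311 and 955 in Dox+ and 613, 1019.7, 510.1 and 1299 in Dox-. Bhlhe40 read 54.7 in undifferentiated cells, 94.2, 487, 550.1 and 165 in Dox+ and 84.4, 111, 46.7 and 326 in Dox-. In both genes the Dox+ arrays of D1.5 and D2.5 were the highest of all 9, and on D3.5 the Dox- array was the higher of the pair. The differences were 0.12, -1.13, -2.14 and 0.44 for Ddit4. For Bhlhe40 they were -0.13, -1.99, -3.17 and 0.92, and -3.17 was the largest of any member on any day with the constant of 16. With a constant of 1, Adm on D2.5 was larger (-3.62 against -3.53).

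Ndrg1 and P4ha1 were highest on the Dox- array of D3.5. Ndrg1 read 35.8 in undifferentiated cells, 78.8, 281, 226 and 204 in Dox+ and 95.8, 63.6, 219 and 532 in Dox-. The media differed by 0.24, -1.90, -0.05 and 1.32, so that Ndrg1 was the lower in Dox- on D1.5, level on D2.5 and the higher on D3.5. The next probe set gave 0.04, -1.70, 0.32 and 1.15. P4ha1 read 49.1, then 85.4, 127, 88.6 and 81.7 in Dox+ and 89.9, 82.5, 111 and 262 in Dox-. It stayed within a narrow range on all differentiating arrays but the last, and its differences were 0.06, -0.54, 0.28 and 1.51, the last being the largest of any member on D3.5. The other probe set gave 0.74 on D3.5.

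**Figure D2:**
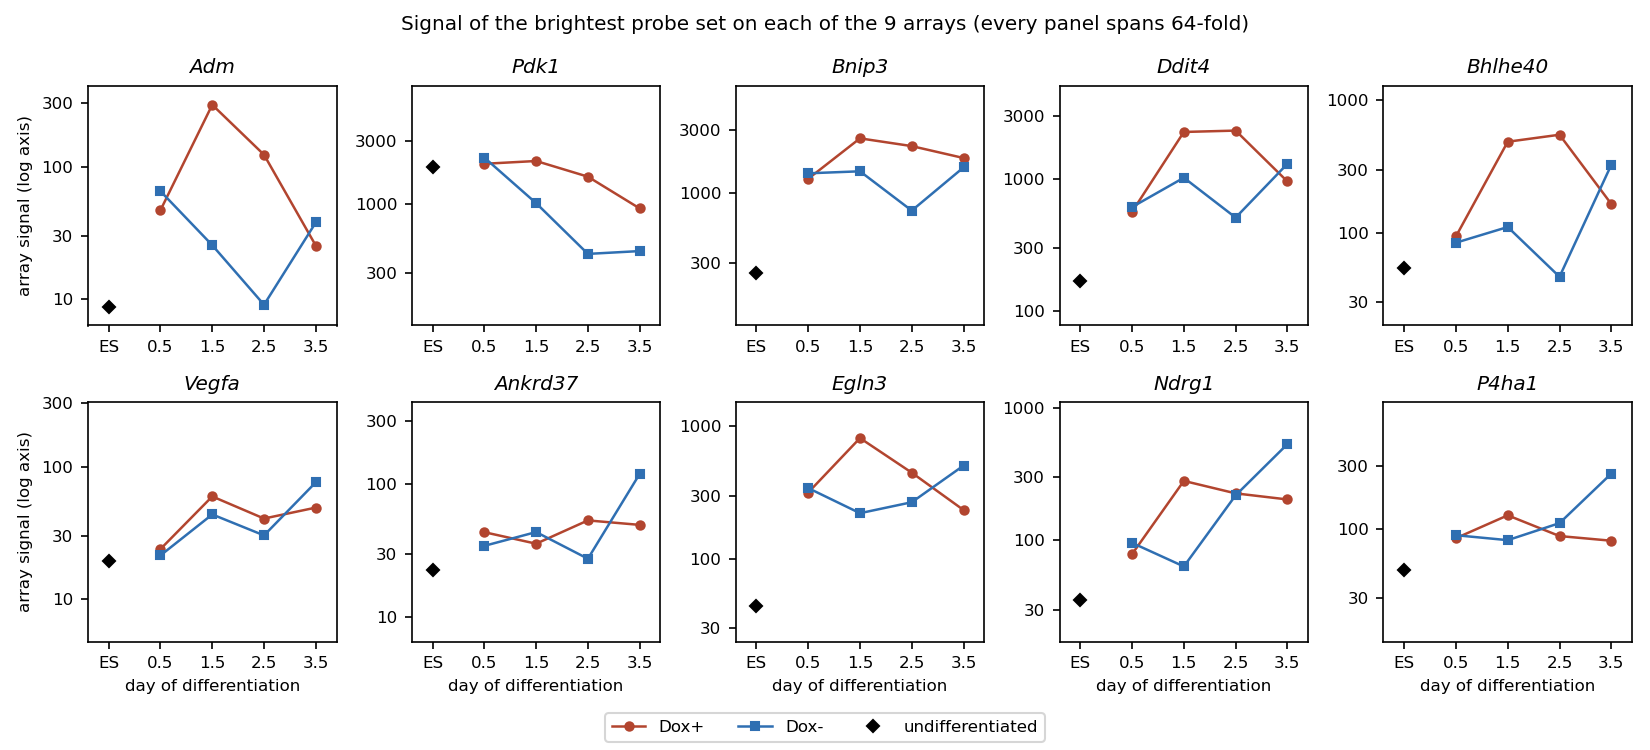
Array signal (log axis, every panel spanning 64-fold) of each member on the undifferentiated array (diamond, ES) and on D0.5 to D3.5 in Dox+ (circles) and Dox- (squares), 1 array per point. Adm reached 293 on the Dox+ array of D1.5 against 25.6 in Dox-, and Pdk1 alone read lower on D3.5 than in undifferentiated cells in both media.

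Counted by day, D0.5 had 0 members with a 2-fold difference (0.0918% of tested genes were that much higher in Dox- and 0.0229% that much lower). On D1.5, 6 were at least 2-fold lower in Dox- (1.42%) and 0 higher (1.33%), and on D2.5, 5 were lower (4.45%) and 0 higher (3.41%). On D3.5, 4 exceeded 2-fold upward in Dox- (4.13%), namely P4ha1, Ndrg1, Egln3 and Ankrd37, and 1, Pdk1, lower (4.8%). These D3.5 counts became 2 and 0 with a constant of 64, and also with the mean of each gene's probe sets. The members' median differences were 0.11, -1.09, -1.15 and 0.71 on the 4 days, against -0.04, 0.01, 0.01 and 0.00 over all tested genes. Adm, Pdk1, Ddit4 and Bhlhe40 were at least 2-fold lower on both D1.5 and D2.5, as were 0.539% of tested genes. Egln3 and Ndrg1 were at least 2-fold lower on D1.5 and at least 2-fold higher on D3.5. A turn of this size, on D1.5 or D2.5 and then D3.5, was made by 0.264% of tested genes. With the mean of probe sets, neither gene was 2-fold higher on D3.5. These counts compare single arrays, and those of D1.5 and D2.5 belong to what the members were chosen from.

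With the 4 days as repeats, limma called 0 of 8716 genes for the medium (0%), while 1039 had an unadjusted p under 0.05 (11.9%), among them Pdk1 alone of the members. The fitted Dox- minus Dox+ difference was -0.96 ± 0.30 for Pdk1 (SE, 4 days; limma adjusted p = 0.415; lower on 3 of 4 days), -1.15 ± 0.63 for Adm, -1.10 ± 0.64 for Bhlhe40, -0.68 ± 0.42 for Ddit4 and -0.63 ± 0.27 for Bnip3. The other 5 members lay between -0.34 and 0.33. This fit counts any turn of the difference with the day as spread. The product of medium and day, which asks for a steady change, was also called for 0 genes (0%), with 1103 at an unadjusted p under 0.05 (12.7%). P4ha1 gave 0.52 ± 0.20 per day (limma adjusted p = 0.384), Ndrg1 0.51 ± 0.39 (0.636), Pdk1 -0.44 ± 0.21 (0.45) and Egln3 0.40 ± 0.37 (0.699).

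**Figure D3:**
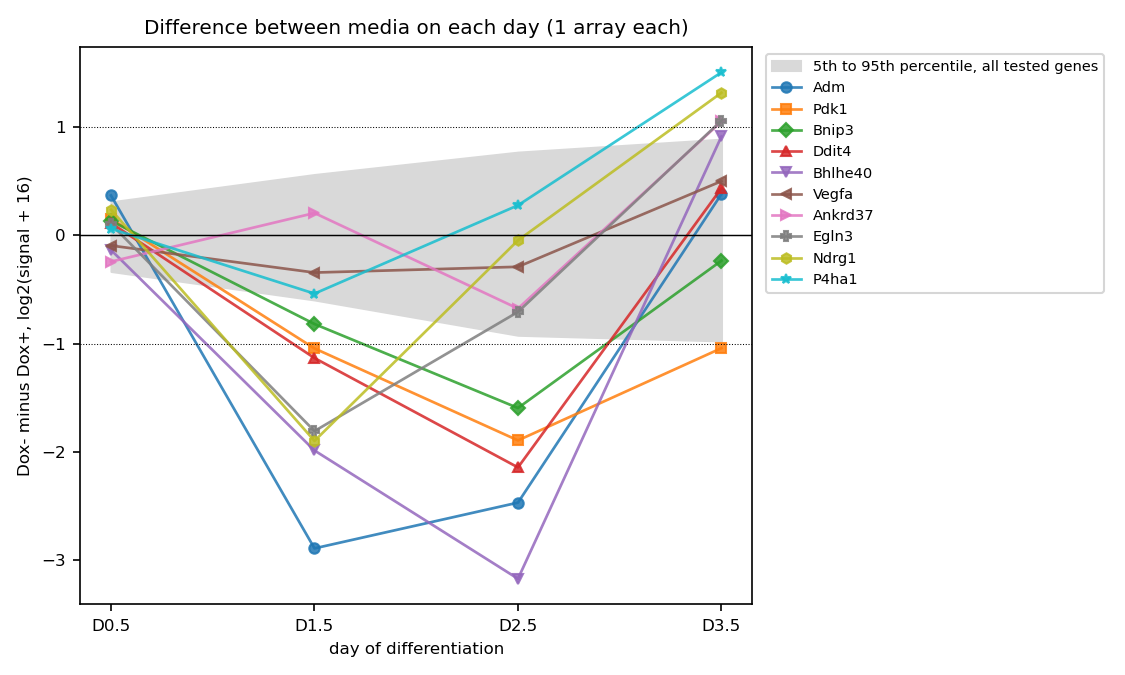
Dox- minus Dox+ difference of each member on D0.5 to D3.5, on the log2(signal + 16) scale, with the 5th to 95th percentile of all tested genes in grey and dotted lines at 2-fold. The members lay near 0 on D0.5, 6 were below -1 on D1.5, 5 on D2.5, and 4 were above 1 on D3.5.

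Followed within each medium, the members moved at different times. From D0.5 to D1.5, 6 were at least 2-fold higher on the later array in Dox+ (4.33% of tested genes), Adm by 2.29 and Bhlhe40 by 2.19, but 0 in Dox- (6.12%), where 1, Pdk1, was at least 2-fold lower (4.07%). From D2.5 to D3.5, 7 were at least 2-fold higher in Dox- (2.89%), Bhlhe40 by 2.45 and Ankrd37 by 1.64, and all 10 were above 0 (50.4%). In Dox+ 0 were at least 2-fold higher over that step (1.32%) and 3, Adm, Bhlhe40 and Ddit4, were at least 2-fold lower (0.769%). These steps share arrays with the differences between media given above and are the same signals seen along the other axis.

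With both media together, Pdk1 fell by 1.70 ± 0.42 between D0.5 and D3.5 (SE, 2 media; limma adjusted p = 0.0353), and it was the only member called, where 22% of tested genes passed (11.7% higher and 10.3% lower). Ndrg1 differed by 1.75 ± 0.67 (adjusted p = 0.109), Bhlhe40 by 1.24 ± 0.90, Ddit4 by 0.90 ± 0.59 and Ankrd37 by 0.78 ± 0.42. Bnip3 (0.33 ± 0.38) and Egln3 (0.06 ± 0.61) were on average near their D0.5 level. The call of Pdk1 was close to the threshold and was lost without the filter on dim genes (adjusted p = 0.0502), without the medium as a block (0.115), without the mean-variance trend (0.0537) and without the D1.5 arrays (0.058). For the single steps, limma called 298 genes from D0.5 to D1.5 (3.42%; 1.84% higher and 1.58% lower), 0 from D1.5 to D2.5 (0%; 326 at an unadjusted p under 0.05, 3.74%) and 0 from D2.5 to D3.5 (0%; 334, 3.83%), with 0 members in each.

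Over the 9 arrays the members were correlated to different degrees. The 36 pairs without Pdk1 had Pearson's r from 0.16 to 0.93 with a median of 0.71, and the highest were Bnip3 with Ddit4 (0.93), Ddit4 with Bhlhe40 (0.90) and Bnip3 with Egln3 (0.89). Pdk1 had r from -0.58, with P4ha1, to 0.50, with Adm, at a median of -0.07, and Adm was closer to Pdk1 than to Ankrd37 (0.16), P4ha1 (0.27), Vegfa (0.38) or Ndrg1 (0.39). By highest signal, Adm, Bnip3 and Egln3 peaked on the Dox+ array of D1.5, Ddit4 and Bhlhe40 on that of D2.5, Vegfa, Ankrd37, Ndrg1 and P4ha1 on the Dox- array of D3.5, and Pdk1 on the Dox- array of D0.5. Ndrg1 and P4ha1 had r = 0.85. The 9 arrays are a time course and are not independent, and all pairs without Pdk1 share a low undifferentiated array. These coefficients are therefore a description. Of genes outside the members, the closest to the members' mean profile over the 9 arrays were Ccng2, a cyclin-like gene (r = 0.97, Spearman's rho 0.92), Ero1a, an oxidase of disulphide formation (0.95, 0.98), the kinase gene Clk1 (0.94), Stc1, a secreted glycoprotein gene (0.94), and Atxn10 (0.93). Ccng2 read 58.4 in undifferentiated cells, 152, 590.3, 573 and 259.9 in Dox+ and 198, 242, 167 and 482 in Dox-. The genes closest to Adm alone were Ints6, Cbl and Rab11fip2, each at r = 0.92. Without the undifferentiated array, Clk1 and Ccng2 were still among the 5 closest (both 0.95).

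**Figure D4:**
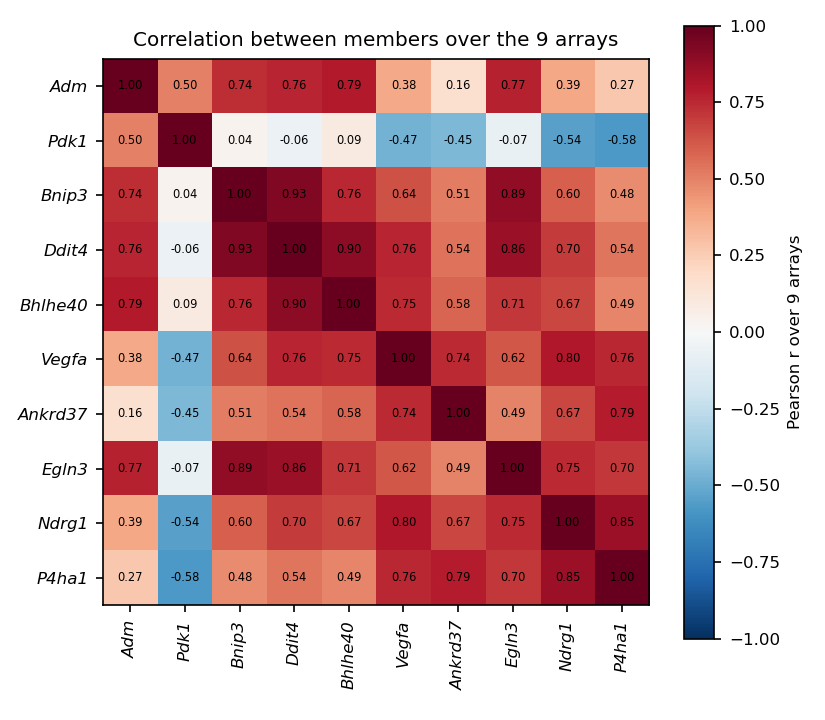
Pearson's r of log2(signal + 16) over the 9 arrays for each pair of members, from -1 (blue) to 1 (red). Bnip3 and Ddit4 had the highest value, 0.93, and the row of Pdk1 runs from -0.58 for P4ha1 to 0.50 for Adm.

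Several transcripts of the HIF machinery varied less over the arrays than any member did. Hif1a, the alpha subunit gene, read between 1477 and 1808 on all 9 arrays, a span of 1.22-fold, while Egln3 spanned 18.3-fold and Adm 33.3-fold. The hydroxylase gene Egln2 (245 to 286), the ligase gene Vhl (99.1 to 144) and the asparaginyl hydroxylase gene Hif1an (117 to 143) were nearly as flat. Epas1, the gene of the alternative alpha subunit HIF-2alpha, read 1284 in undifferentiated cells, 1420, 417, 167 and 48.4 in Dox+ and 1658, 149, 112 and 555 in Dox-. It was high early and lower later in both media, by -3.02 ± 0.97 between D0.5 and D3.5 (limma adjusted p = 0.0718). Egln1 (PHD2), the main oxygen sensor, was the only one of the 12 tested genes of this list called over that interval, and rose by 1.40 ± 0.27 (adjusted p = 0.0179), from 144 and 178 on D0.5 to 418 and 482 on D3.5. Cited2, which competes with HIF for its coactivator and also answers cyclic AMP, read 205 in Dox+ against 737 in Dox- on D2.5. On D3.5 the values were 363 and 1159.8. Its fitted difference between media was 0.95 ± 0.32 (adjusted p = 0.415). The beta subunit gene Arnt (95.2 to 192), Arnt2 (33.6 to 88.4), Hif3a (25.4 to 100.2), Siah1a (263 to 391) and Cul2 (664 to 1002) completed the list, whose median differences between media were 0.04, -0.04, -0.06 and 0.10 on the 4 days. HIF alpha subunits are regulated mainly as proteins, which these arrays do not measure.

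**Figure D5:**
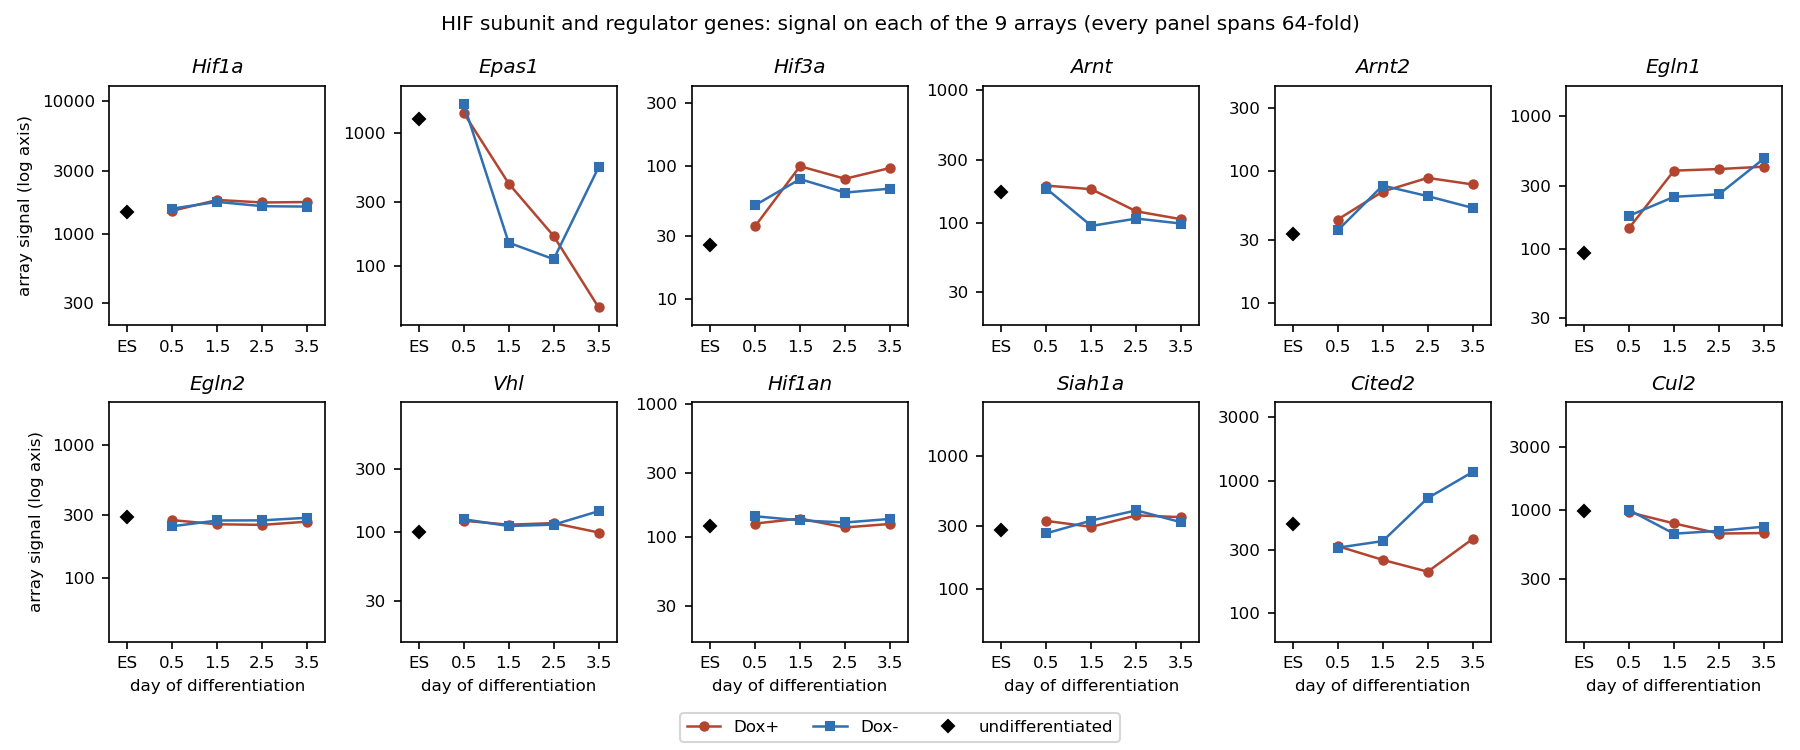
Array signal (log axis, every panel spanning 64-fold) of the 12 tested genes of HIF subunits and regulators, drawn as in the plot of the members' signals. Hif1a stayed between 1477 and 1808, while Epas1 went from 1658 on the Dox- array of D0.5 to 48.4 on the Dox+ array of D3.5.

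Of 36 other HIF target genes listed, 22 were tested, and their median differences between media were 0.04, -0.31, -0.27 and 0.20. In Dox-, 0 were 2-fold higher and 2 lower on D1.5, 2 higher and 3 lower on D2.5, and 2 higher and 1 lower on D3.5, beside the shares of all tested genes given above. In the fit of undifferentiated and D0.5 arrays, 7 were called higher and 1 lower, among them Pfkfb3, which makes an activator of glycolysis (1.02 ± 0.25, limma adjusted p = 0.00561), and Stc2, a secreted glycoprotein gene (0.92 ± 0.19, 0.00166). Between D0.5 and D3.5, 3 of the 22 were called higher and 2 lower, close to the shares of all tested genes (11.7% and 10.3%). The largest fitted changes were 3.01 ± 0.57 for Igfbp3 (limma adjusted p = 0.0177) and 2.12 ± 0.90 for Cxcr4 (0.141, not called). Next in size was Angptl4, called lower, at -2.00 ± 0.24 (0.00547). Glycolysis genes gave 10 of 15 called higher and 0 lower on D0.5. Tpi1, the triosephosphate isomerase, read 868 in undifferentiated cells and 1975 and 1875 on D0.5 (1.13 ± 0.13, adjusted p = 6.63e-07), and the phosphofructokinase gene Pfkm 58.8, then 138 and 116 (0.93 ± 0.18, 0.000592). Slc2a1 and Pfkfb3 stand on both lists. The glycolysis median between media was -0.01, -0.26, -0.44 and 0.01 on the 4 days, and 4 genes were called higher between D0.5 and D3.5, Aldoc by 1.51 ± 0.37 (adjusted p = 0.0352).

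Lists for other signals that can induce some of the members were set beside them. Ddit4 is also known as a target of the integrated stress response, of p53 and of glucocorticoid. Of 17 tested integrated stress response genes, 1 was called higher and 1 lower on D0.5, and their median differences between media were -0.11, -0.17, -0.12 and 0.03. Of 11 tested p53 target genes, 0 were called higher and 2 lower on D0.5, and the medians between media were 0.09, 0.56, 0.22 and -0.10. The 11 tested genes of glucocorticoid and serum response gave 2 higher and 2 lower on D0.5 and medians of 0.02, -0.08, 0.13 and -0.16. The 9 tested cyclic AMP-responsive genes gave 0 higher and 3 lower on D0.5, and medians of -0.04, 0.45, 0.21 and -0.08. The 20 tested paralogs of the members' enzymes and mitochondrial proteins gave 0 higher and 3 lower on D0.5, and medians between -0.04 and 0.05. All tested genes had a median of 0.02 on D0.5 in the same fit.

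The receptors of the secreted members had their own pattern between media. Kdr, the main Vegfa receptor, read 22.5, 8.7, 2.0 and 21.1 in Dox+ and 17.4, 87.4, 274 and 483 in Dox-. The coreceptor gene Nrp1 read 4.0, 5.0, 5.7 and 17.3 in Dox+ and 9.1, 27.9, 164 and 1052 in Dox-. Both read higher in Dox- from D1.5 on, while Vegfa itself was less than 2-fold apart on every day, and their fitted differences were 2.40 ± 0.69 and 2.36 ± 0.75 (limma adjusted p = 0.415 for both). On D3.5 the receptor gene Flt1 read 46.1 in Dox+ against 78.9 in Dox-, and the coreceptor gene Nrp2 56.0 against 608.3. Flt4, on the same list, went the other way that day, at 80.6 against 37.7. Kdr also stands among the streak and mesoderm markers given below. Of the adrenomedullin receptor, Calcrl was too dim to be tested, and on D1.5 it read 0.5 in Dox+ against 21.3 in Dox-, and its partner gene Ramp2 read 68.0 and 80.9. Ramp3, the gene of another partner, was the lower in Dox- later on, with 78.0 in Dox+ against 19.4 in Dox- on D2.5 and 52.6 against 4.9 on D3.5. The highest Calcrl signal, 52.5, fell on the Dox- array of D2.5, where Adm read 9.1.

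Markers of cell state moved with the same arrays. The summed signal of 8 pluripotency markers was 21525 in undifferentiated cells, went from 19003 to 9825 in Dox+ and from 18423 to 2857 in Dox-, and Pou5f1 read from 524 to 2724, so pluripotent cell transcripts were present on all arrays. The sum of 8 streak and mesoderm markers was 139 to 182 on D0.5, stayed at 141 and 130.3 in Dox+ on D1.5 and D2.5, and was 876 and 5816 in Dox-. On D3.5 it was 1718 in Dox+ and 3204 in Dox-. The Dox- sum of D1.5 came mostly from Etv2 (408), Tal1 (205), Eomes (118) and Kdr (87.4). Mixl1 (21.0), Pdgfra (15.8), Mesp1 (13.8) and Gsc (6.5) were dim on that array. The 7 endothelial markers, of which 1 passed the filter, summed to 244 at most, and the 8 fibroblast markers, of which 2 passed, to 461 at most, on the Dox- array of D3.5. The 10 trophoblast and primitive endoderm markers, of which 5 passed, summed to 1191 in undifferentiated cells and to 611 and 601 on D0.5. On D3.5 they summed to 753 in Dox+ and 1918 in Dox-. Sparc alone made up most of these sums, at 607 and 1313. The markers not tested read from 3.2 (Elf5) to 97.4 (Hand1) on that Dox- array. Of the 5 tested, 3 were 2-fold or more higher in Dox- on D2.5 and 5 on D3.5. In the fit of undifferentiated and D0.5 arrays, 4 of these 5 and 4 of the 8 pluripotency markers were called lower and 0 of either higher. The part of these changes in the members' differences was not tested. The Actb ratio of 3' to 5' signal, which reflects RNA integrity, was 1.60 to 1.98 over the arrays, and 41.6% to 44.2% of genes reached a signal of 50 on an array.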

How the data were processed

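The 9 arrays were compared through the intensity table deposited by the authors, which holds 1 linear signal per probe set and array. Per the submitters' processing notes the signals came from GCOS, Affymetrix's array software, and the sources used here do not give its version or settings. Per the labels the arrays were scaled to an average of 100, and the mean without the highest and lowest 2% of probe sets was 100.02 to 101.74. No further normalization was applied.

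Gene symbols came from the platform annotation, updated by gene ID through RefSeq (GRCm38.p6): of 45101 probe sets, 34945 had 1 symbol, 932 several and 9224 none or were controls. Those with several were not used. The deposited intensity values were turned into log2(signal + 16). Genes that reached a signal of 50 on 2 or more arrays were tested with limma 3.58.1 in R 4.3.3 (lmFit, eBayes with trend, Benjamini-Hochberg adjustment over 8716 genes). The design had the stage and the medium as terms, with 3 residual degrees of freedom, the undifferentiated array counted as Dox+. The product of medium and day had 2. Single arrays were compared without a test. The fits were checked on simulated data.

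The members and all 14 gene lists were chosen with earlier results of these data known. All members are named. From other lists the rule allows the 2 tested genes with the largest absolute fitted value in a comparison, and not all of these are named. It also allows all tested HIF genes and receptors of Adm and Vegfa. Angptl4 and single marker genes are named outside this rule. For likeness the rule names the 5 genes closest to the members' mean profile and the 3 closest to Adm. Stc2, Pfkfb3, Tpi1 and Pfkm were named by the fit of all arrays. Alternatives were pseudocounts of 1 and 64, no filter, a stricter filter on dim genes, quantile scaling and the mean of a gene's probe sets. Others were no trend, no block, leaving out each day's arrays and setting the undifferentiated array against the mean of both D0.5 arrays. The stricter filter left out Vegfa and Ankrd37, so neither was checked under it. A fit of the undifferentiated and D0.5 arrays alone was added after the values were seen.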

Additional observations from a re-analysis of the deposited data

Results flagged for a closer look

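Egln3 and Ndrg1 differed between the media in opposite directions on different days. Egln3 was lower in Dox- on D1.5, at -1.81, and higher on D3.5, at 1.06. Ndrg1 was lower in Dox- on D1.5, at -1.90, and higher on D3.5, at 1.32. On D3.5 the other probe set of Egln3 gave 0.75 and those of Ndrg1 gave 0.12 to 1.15. With the mean of probe sets, neither gene was 2-fold higher on that day. Each value compares 1 array with 1 array. The limma test of a steady change of the difference with the day did not pass for either gene (adjusted p = 0.699 and 0.636), and the turn itself was not tested.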

How the results depend on the processing

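Of 706 fitted member values recomputed under the alternatives, 677 kept their direction and their side of the threshold, 15 changed sign, 10 passed only in the alternative and 4 no longer passed. None of the 15 was a called value. Most of the 10 came from the fit of the undifferentiated and D0.5 arrays alone, which was added after the values were seen. Of 160 single-day differences recomputed, 5 changed sign, all with the mean of probe sets and none of them 2-fold: Pdk1 (-0.00906), Vegfa (0.32) and P4ha1 (-0.10) on D0.5, and Vegfa (0.0499) and Ndrg1 (0.18) on D2.5. With a pseudocount of 64, Ankrd37 from D1.5 to D2.5 gave 0.00091 and Egln3 from D2.5 to D3.5 gave 0.00053. With quantile scaling, Ankrd37 from D0.5 to D1.5 gave -0.041 and the change with day of Ddit4 0.0101. With the mean of all probe sets, Vegfa gave -0.24 from undifferentiated cells to D0.5, 0.085 for the medium and -0.0417 for its change with day, Egln3 -0.25 from D0.5 to D3.5 and Ndrg1 0.0219 for the medium. Without each day in turn, the medium difference ranged from -0.24 to 0.34 for Ankrd37, -0.80 to 0.15 for Egln3, -0.57 to 0.50 for Ndrg1, -0.0655 to 0.62 for P4ha1 and -0.24 to 0.0397 for Vegfa. From undifferentiated cells to D0.5, 7 genes were called with a pseudocount of 64 and 1158 in the fit of those arrays alone, 7 of them members. From D0.5 to D1.5, 163 were called without the filter and 96 to 428 without 1 day. Between D0.5 and D3.5, 0 members were called without the filter or the block and 2, Pdk1 and Vegfa, with the mean of probe sets (Vegfa adjusted p = 0.0272). Without the trend Vegfa was called in place of Pdk1 (0.0385), and without the D1.5 arrays Ndrg1 (0.0287). On D3.5, 2 members were at least 2-fold higher and 0 lower in Dox- with a pseudocount of 64, and also with the mean of probe sets. Signals near the dim end limit Adm, Vegfa and Ankrd37, and 1 array per group limits every value.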
